A study of Mus musculus with 6 samples.

Results

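The binding of GABPα to a composite DNA element was measured on 2 protein binding microarrays on which GABPα carried a GST tag and CREB1, present in the same protein mixture, carried none. The members described here are all custom probes on these arrays that hold 1 or 2 base substitutions in the 16-base element, 6768 of the 6889 custom sequences, on 2 of the 6 arrays of the series. They comprise 288 probes with 1 substitution (48 substitutions in 6 settings each) and 6480 with 2 (1080 pairs of substitutions in the same 6 settings). Each was compared with the intact element in the same setting on the same array, so no value below sets one protein mixture against another.

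GABPα is the DNA-binding subunit of an ETS-family factor, and ETS proteins recognise a purine-rich site built around GGAA. CREB1 is a bZIP protein that binds as a dimer to the palindromic cyclic AMP response element, the CRE, in which each half-site is contacted by one subunit. ETS sites and CREs are common in promoters of housekeeping genes, and in the element used here they overlap by one T, which ends the ETS site and begins the CRE.

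Both arrays received protein made by cell-free translation from 570 ng of the plasmid for GST-tagged GABPα and 66 ng of the plasmid for untagged CREB1 in 250 µl, run for 2 h at 37 °C, of which 230 µl went onto the array. The proteins were DNA-binding domains rather than full-length factors, and they were added to naked double-stranded DNA, so no chromatin, partner subunit or cell was involved. The labels give the domain as bZIP for both proteins, although GABPα belongs to the ETS family. The amount of either protein was not reported, and nothing in the labels says whether the 2 arrays came from separate translation reactions. The p-values rest on the spread between arrays that received the same protein mixture, estimated over the whole series and not from these 2 arrays alone. This spread may be technical.

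The intact element is shown first, because every substitution is counted along it from 1 at its 5′ end. Positions 1 to 8 are called the ETS part here, position 9 is the shared T, and positions 10 to 16 are the rest of the CRE; capitals in each line below mark the changed bases, and the name gives the original base, the position and the new base. The lines are the element, A1G, A7T and G8A as the mildest change at each of their positions, one change that removed all detectable signal, the mildest change of the shared T, the mildest and the harshest change at position 10, the single change with the smallest effect, and 3 of the pairs on which the results turn.
intact: accggaagtgacgtca
A1G: Gccggaagtgacgtca
A7T: accggaTgtgacgtca
G8A: accggaaAtgacgtca
G8T: accggaaTtgacgtca
T9C: accggaagCgacgtca
G10T: accggaagtTacgtca
G10C: accggaagtCacgtca
C15A: accggaagtgacgtAa
G10T+A11G: accggaagtTGcgtca
C15A+A16T: accggaagtgacgtAT
T14A+A16C: accggaagtgacgAcC

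Each element stood in 6 settings of a 60-base probe: at base 1 (outer), 11 (middle) or 21 (inner), and written forward or as its reverse complement, which puts the CRE first. The middle and inner settings place the element further along the probe, so other bases stand beside it. The outer forward and outer reverse probes with the intact element, with the element in capitals, share all their other bases.
outer forward: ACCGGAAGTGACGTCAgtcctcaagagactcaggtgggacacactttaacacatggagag
outer reverse: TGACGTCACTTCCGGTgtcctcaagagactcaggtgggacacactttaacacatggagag

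The setting alone moved the signal of the intact element several-fold. Its processed intensity, the background-corrected spot brightness, was 2702 and 3570 on arrays 1 and 2 in the outer forward setting, the dimmest on each array, although on array 2 inner reverse lay close to it at 3593. The outer reverse setting gave 9696 and 14355, the brightest on both arrays. Between these lay middle forward with 6669 and 8097, middle reverse with 6321 and 6988, inner forward with 3674 and 4679, and inner reverse with 3240 and 3593. Every intact probe was above background on both arrays, on 44 to 48 usable spots each.

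Of the 6768 mutated probes, 1984 (29.3%) were above background on both arrays: 174 of the 288 with 1 substitution and 1810 of the 6480 with 2. For the rest the signal gives only a lower bound on the loss, so losses below background are written as "at least"; these bounds are on the processed scale, and the deposited intensities, with their lighter background correction, give smaller losses for some of the same changes. Across these 1984 probes, which share array, intact reference and design, the log2 effects of the 2 arrays had a Pearson correlation of 0.951 and differed with an SD of 0.222, which is a description over probes and not over independent samples. Most sequences were printed in 24 copies, and 30.8% and 30.6% of the custom sequences on arrays 1 and 2 were above background.

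Nearly every substitution lowered GABPα signal. Averaged over the 6 settings, 46 of the 48 single substitutions were lower than the intact element in limma's test with Benjamini-Hochberg adjustment over all 1128 single and double substitutions, of which 99.3% were called lower, and probe by probe 99% of the 6768 were, so a call by itself says little and the sizes and the number of settings above background carry the description. None of the 1128 was higher, also at an unadjusted p under 0.05. The standard error was 0.11 on the log2 scale for each of these effects, because the fit gave them one common spread. With dim probes held at their bounds, the median loss was at least 7.69-fold over the 24 changes in positions 1 to 8 and at least 1.64-fold over the 21 in positions 10 to 16, against at least 2.47-fold over all 48.

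Changes in the GGAA core removed the signal. The core spans positions 4 to 7, and 9 of its 12 substitutions were above background in no setting on either array. At positions 4 and 6 every replacement base gave a loss of at least 7.73-fold. G4A, for instance, had processed intensities of 138 to 150 on array 1 and 197 to 210 on array 2 across the 6 settings, all below background, beside intact values of 2702 or more. In the deposited intensities, which have a lighter background correction, G4A kept 4.0% and 2.2% of the intact signal on arrays 1 and 2.

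The last core base was the exception. A7T kept 45.3% and 44.7% of the deposited intact signal on arrays 1 and 2 and was above background in 5 settings, where its loss was 2.22-fold. In the middle forward setting A7T had 2953 and 3608 against 6669 and 8097 for the intact element. A7C lost at least 5.57-fold and A7G at least 7.73-fold, and they kept 19.1% and 4.0% of the deposited signal on array 1 and 16.5% and 2.0% on array 2. A7T turns the GGAA core into GGAT, and it was the only single change of the core to stay above background in more than 2 settings.

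The base after the core depended on what replaced it. G8A was the mildest change of the whole ETS part, with a log2 effect of -0.45 (-0.51 and -0.39 on arrays 1 and 2) and 74.9% and 73.0% of the deposited signal kept. Its processed intensities ran from 1546 to 6708 on array 1 and from 2237 to 9513 on array 2, and each lay below the intact value of its own setting. G8C, above background on both arrays in 3 settings, kept 26.6% and 23.9% of the deposited signal. G8T lost at least 7.73-fold and kept 5.2% and 2.8%. Within this one position the outcome thus ran from a 1.37-fold loss to the loss of all detectable signal.

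The flank before the core was graded in the same way. A1G, A1C and A1T kept 67.8%, 54.4% and 49.7% of the deposited signal on array 1 and 68.3%, 55.9% and 50.4% on array 2. All 3 pairwise differences at position 1 were called (adjusted p in limma at most 0.005), as were 89.9% of all 1128 differences between single substitutions. A1C and A1T were dim in outer forward on at least 1 array. Without that setting A1C minus A1T was 0.12, against 0.21 with it. At position 2, C2G and C2A kept 41.4% and 36.1% on array 1 and 40.9% and 33.4% on array 2, while C2T fell by at least 6.09-fold. At position 3, C3A lost 2.66-fold over the 5 settings in which it was above background, while C3G and C3T were above background nowhere and lost at least 7.73-fold. In positions 1 to 8, only A1G and G8A were above background in all 6 settings on both arrays.

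Changes of the shared T cost as much as many in the ETS part. T9C, T9G and T9A lost at least 3.90-fold, 6.32-fold and 6.60-fold. They kept 28.5%, 15.3% and 13.4% of the deposited signal on array 1 and 23.6%, 8.1% and 10.5% on array 2, T9C the most on both. T9C had 2257 and 2667 on arrays 1 and 2 in the middle forward setting and 2509 and 3791 in outer reverse, and stood above background on both arrays in 3 settings. In the palindrome, position 9 is mirrored by position 16, and A16G, the change mirrored by T9C, had a log2 effect of -0.26 and kept 84.2% and 82.6% of the deposited signal. The differences among these changes are given without a test, since T9C, T9G and T9A were dim in at least 3 settings each.

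The mean loss at CRE bases was larger next to the ETS site than at the far end, though not in strict order. Averaged over the 3 replacement bases and the 5 settings other than outer forward, the log2 effect was -0.89 at position 10, -0.94 at 11, -0.71 at 12, -0.68 at 13, -0.56 at 14, -0.14 at 15 and -0.28 at 16. Position means were not tested against each other. Outside the outer forward setting all 21 CRE changes were above background in every setting, and the largest mean loss there was 2.22-fold, for G10C.

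Individual CRE bases tolerated some replacements well. Averaged over all settings, C15A cost nothing that these arrays could resolve. Its mean log2 effect was -0.01 (SE 0.11, adjusted p in limma = 0.916). This mean combines a log2 effect of -0.40 in outer forward with 0.07 over the other settings. In outer forward C15A had processed intensities of 1958 and 2832 on arrays 1 and 2, against 2702 and 3570 for the intact element. C15A gave processed intensities of 10178 and 14336 in outer reverse, where the intact element gave 9696 and 14355, and 95.2% and 99.1% of the deposited signal over all settings. A16T was also not called (-0.21, adjusted p = 0.061). The mildest replacements elsewhere in the CRE were T14A (-0.43), C12T (-0.44), G13A (-0.56), G10T (-0.71) and A11G (-0.86). With deposited intensity C12T, T14A, C15G, C15T, A16C and A16G kept their direction but were no longer called, and C15T (-0.25) also lost its call without array 1 or without the outer forward setting. The costliest over the 5 settings other than outer forward were G10C (2.22-fold) and A11C (2.17-fold). Over all settings they kept 44.7% and 44.8% of the deposited signal on array 1 and 39.1% and 41.9% on array 2.

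The 2 arms of the CRE are the same sequence read on opposite strands, so each change in the arm next to the ETS site has an equivalent change in the far arm. Of the 12 such mirrored pairs, 10 had the lower signal for the change on the ETS side. The same test called 89.9% of all 1128 pairs of single substitutions different in either direction. Among the 10 are the pairs of T9A, T9C and T9G with position 16, where the ETS-side base also belongs to the ETS site. In 9 of the 12 a member was dim in at least one setting, and of the other 3, 2 were called. G10T against C15A, both above background in all settings, differed by -0.70 (SE 0.05; -0.68 and -0.71 on arrays 1 and 2; adjusted p in limma = 1.9e-05). A11G against T14C differed by -0.28 (SE 0.06, adjusted p = 0.005). At the central positions C12T minus G13A was 0.11 (SE 0.04, adjusted p = 0.053) and C12G minus G13C -0.14 (SE 0.06, adjusted p = 0.067), neither called, while C12A minus G13T was -0.20 (SE 0.05, adjusted p = 0.013) and called.

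The outer forward setting differed from the other 5, of which outer reverse likewise has no probe bases before the element. There 13 of the 21 CRE changes were above background on both arrays and 7 on neither, against all 21 in each other setting. G10A had 172 and 344 in outer forward, below background, against 3245 and 4258 in middle forward and 4910 and 7467 in outer reverse. On the processed scale its loss was therefore at least 4.43-fold in outer forward and 1.92-fold over the other 5 settings. G10T, which stayed above background there with 1058 and 1380, lost 2.57-fold in outer forward and 1.49-fold elsewhere (difference of log2 effects -0.78, SE 0.12, adjusted p in limma = 2.3e-10). In deposited intensity G10T had 1889 and 2164.5 in outer forward against 3251 and 4213 for the intact element, a smaller loss. The contrast between settings was not tested on that scale, so its size holds for processed intensity only.

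This contrast was chosen after the values were seen. On the processed scale 6 of the 13 CRE changes above background in outer forward were called lower there than elsewhere, and none higher. Of all 1128 substitutions 36.2% were called lower. On the same scale each of the 7 below background on both arrays lost at most 2.22-fold elsewhere and at least 4.43-fold in outer forward. In deposited intensity C12A had 870.75 and 878.5 there against 3251 and 4213 for the intact element. On array 1 this was a smaller loss than that bound. The 6 called lower were G10T, A11G, G13A, G13C, T14A and C15A. Among changes at position 16, A16G gave a difference of 0.12, A16T of 0.13 and A16C of -0.13 (SE 0.12 each, adjusted p = 0.344, 0.289 and 0.286), none called. Because several 6-setting means rest partly on dim outer forward probes, means over the other 5 settings are given beside them below.

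Pairs of substitutions separated by where they lay. Over the 1080 pairs, 1074 were called lower. Both changes in the ETS part left 18 of 252 pairs above background in at least one setting, and one change in each part 185 of 504. One change at position 9 left 62 of 135, and both in the CRE all 189. With at least one change at position 4, 5 or 6, only 2 of 2268 probes were above background on both arrays, G5T+A16C and G5T+A16G, each in outer reverse alone, with log2 effects there of -3.91 and -4.03.

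Among pairs within the ETS part, the brightest were A1G+G8A, A7T+G8A and A1G+C2G, which kept 52.4%, 44.8% and 43.5% of the deposited signal on array 1 and 50.4%, 47.0% and 45.0% on array 2. A1G+G8A had 2624 and 3581 in the middle forward setting. For a single change in the ETS part combined with each of the 21 CRE changes in 6 settings, the number of the 126 probes above background followed the single change: 108 with G8A, 107 with A1G, 81 with A7T, 72 with C2G, 56 with C3A, 18 with G8C, and 0 with any change at position 4 or 6. With T9C, 68 of its 270 probes were above background, and the brightest, G8A+T9C, kept 30.0% and 27.1% of the deposited signal.

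Pairs within the CRE left most of the probes above background except in outer forward. In the 5 settings other than outer forward, the median loss of the 189 pairs was between 1.92-fold and 2.21-fold, and at least 185 of the 189 were above background in each. In outer reverse the lowest pair, A11T+T14C, still kept 41.2% and 37.2% of the deposited signal on arrays 1 and 2, a 2.73-fold loss. In inner reverse 4 pairs were below background. In outer forward 30 of 189 pairs were above background.

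The 6 pairs not called lower all lay at positions 15 and 16. C15A+A16T had 10791 and 13315 in outer reverse and 2757 and 4062 in outer forward, against 9696 and 14355 and 2702 and 3570 for the intact element. Its log2 effect was 0.04 (SE 0.11, adjusted p in limma = 0.713). C15A+A16C, C15A+A16G, C15G+A16T, C15T+A16T and C15T+A16G had effects between -0.02 and -0.18. For these 6 pairs, selected as not called, the effects were no lower than -0.18 on the log2 scale, each on a standard error of 0.11. The other pairs at positions 15 and 16 were called lower: C15G+A16C (-0.29), C15T+A16C (-0.26) and C15G+A16G (-0.22).

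If 2 substitutions act independently, their log2 effects add, and the departure is the effect of the pair minus the sum of the effects of its 2 members. Counted only where the pair and both members were above background in all 6 settings, 37 pairs could be read, 24 within the CRE and 13 with one change in each part. Within the CRE 13 departed upward (less loss than the sum) and 1 downward, with a median of 0.23. A pair had to stay above background in outer forward too, which left out pairs with large losses there. In that setting 30 of the 189 CRE pairs were above background. The median departure there was 0.35 for the 24 readable pairs, against -0.06 over all 189, dim ones included. The counts for these 24 are thus partly set by the filter and do not describe all CRE pairs. Of the 13 pairs across the parts, none departed in limma's test, also at an unadjusted p under 0.05, and the median was 0.03. Over all 1080 pairs, dim ones included, 57.2% were called upward and 25.3% downward, and a pair at background cannot show a further loss, so the count over all pairs says little about additivity.

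G10T+A11G departed most. Its members had log2 effects of -0.71 and -0.86, a sum of -1.57, while the pair had -0.73, a departure of 0.84 (SE 0.07; 0.87 and 0.80 on arrays 1 and 2; adjusted p in limma = 1.7e-07). In middle forward the pair had 4715 and 5333, G10T alone 4437 and 6271, and A11G alone 4135 and 4747. The pair replaces the first half-site of the CRE with TTGC, the half-site known from C/EBP factors, and leaves the second half-site intact. The next were pairs at positions 15 and 16: C15T+A16T 0.41, C15G+A16T 0.36, C15T+A16C 0.34 and C15A+A16C 0.34. The only downward departure was T14A+A16C, -0.15 (SE 0.06, adjusted p = 0.029), whose call was lost when either array was left out (adjusted p = 0.177 and 0.0502).

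Leaving out the outer forward setting made 262 pairs readable, among them 185 of the 189 within the CRE, so that this class is nearly complete. Within the CRE 90 departed upward and 10 downward, with 55.4% and 23.7% called over all 1080 pairs. The departures followed position. Both changes in positions 10 and 11 gave 8 of 8 readable pairs upward with a median of 0.67, one change there and one at 12 or 13 gave 35 of 36 with a median of 0.46, and both at 12 and 13 gave 9 of 9 with a median of 0.52. One change in positions 10 to 13 and one in 14 to 16 gave medians of 0.04 and 0.03, with 25 upward and 9 downward of 105. Both in 14 to 16 gave 13 upward and 1 downward of 27, median 0.15.

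In the largest of these the pair lay near its harsher member. G10A+A11C had 4169 and 6633 in outer reverse, where A11C alone had 4257 and 6256. Over the 5 settings the log2 effect was -1.14 for the pair, -1.12 for A11C alone and -0.94 for G10A alone, a departure of 0.93 (SE 0.07, adjusted p in limma = 3.0e-06). G10A+G13T followed with 0.85, A11C+C12A with 0.85, G10A+A11G with 0.83 and G10C+G13T with 0.83. Downward, the largest were C12T+A16C at -0.24, C12T+A16G at -0.24, C12T+A16T at -0.23 and A11G+A16G at -0.22. C12T alone had a log2 effect of -0.41, and its 3 pairs had effects of -0.87 to -0.98.

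The same lists were computed with the other background corrections. Over the 5 settings the median departure of the 9 pairs within positions 10 and 11 was 0.68 with processed intensity, 0.67 with deposited intensity and 0.60 with normexp correction, and all 9 pairs were above the sum in each. For the 36 pairs between positions 10 and 11 and positions 12 and 13 the medians were 0.46, 0.45 and 0.42, again with all 36 above the sum.

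Across the ETS and CRE parts the readable pairs departed little when averaged, and downward more often than upward in single settings. Over the 5 settings 73 pairs with one change in each part could be read, with a median departure of -0.01, 5 called downward and none upward (also none upward at an unadjusted p under 0.05). A pair had to be above background in all 5 to be read, which leaves out pairs that departed far downward. Setting by setting, 659 probes of this class could be read in the same 5 settings, and 150 departed downward and 20 upward, with a median of -0.08. The downward share was highest with C2A (26 of 51), G8C (12 of 18) and A7C (8 of 10), against 11 of 102 with G8A and 10 of 100 with A1G. The same single-setting test called 18.4% of all 6480 probes downward and 55.8% upward. These single-setting counts rest on processed intensity alone, which overstates the loss of dim probes. G8A was readable with 19 of the 21 CRE changes, so this set is nearly complete. Its largest departures among those 19 were G8A+G13T at -0.13 (SE 0.06, adjusted p in limma = 0.089) and G8A+A11C at -0.11 (SE 0.06, adjusted p = 0.108), and none of the 19 was called. G8A+C15A, the brightest pair across the parts, had a log2 effect of -0.46 over 6 settings, against -0.45 for G8A and -0.01 for C15A.

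The 2 remaining pairs with G8A were below background in at least one of the 5 settings. G8A+A11T was so in inner forward alone, and its departure over the 5 settings was -0.27 (SE 0.08, adjusted p in limma = 0.011). G8A+G10C had 398 and 460 in inner forward and 418 and 563 in inner reverse, below background, against 1642 and 1730 and 1423 and 1580 for G10C alone. In the 3 other settings it was above background, and the departure was -0.62 in middle forward (SE 0.16, adjusted p = 0.007), -0.33 in middle reverse (SE 0.09, adjusted p = 0.011) and -0.26 in outer reverse (SE 0.14, adjusted p = 0.124). These departures are on processed intensity. In deposited intensity in middle reverse the pair had 2488.75 and 3010.5, G8A 4956.5 and 5731.75, and G10C 3748 and 3933.25. The intact element had 6918.75 and 7572 there, so on that scale the pair lay close to the sum in middle reverse. In inner forward the deposited intensities were 1135.5 and 1084.75 for the pair, 3999.5 and 4240.75 for G8A, and 2318.5 and 2246.5 for G10C. The intact element had 4502.75 and 5480.5 in inner forward, so there the pair lay below the sum on both arrays. Departures in single settings across the parts were not tested with deposited intensity. In the inner forward setting G8A with G10A, A11C, A11G, C12A, C12G and C12T also departed downward, with values of -0.58, -0.52, -0.44, -0.62, -0.41 and -0.24, and none of these 6 was called in the other settings examined.

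Within the ETS part 4 pairs were readable over the 5 settings, and 2 of them departed upward, a share near the 55.4% called upward over all 1080. A1G+C2G had an effect of -1.27 against a sum of -1.79 (departure 0.52, SE 0.06, adjusted p in limma = 4.3e-05), and A7T+G8A had -1.13 against a sum of -1.54 (departure 0.41, SE 0.06, adjusted p = 0.000142). The A7T+G8A pair had 2922 and 4560 in middle forward, beside 2953 and 3608 for A7T alone, so the pair was the brighter on array 2 only.

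Setting mattered for departures too. In outer reverse, the brightest setting, 145 of the 189 CRE pairs departed upward and none downward in the single-setting test, and the median pair lay level with its harsher member (log2 difference -0.003). In middle reverse 31 departed upward and 22 downward, and the median difference from the harsher member was -0.28. Inner forward gave 75 upward and 5 downward, middle forward 54 and 23, and inner reverse 36 and 33 of 185 readable pairs. In outer forward 15 of the 24 readable pairs departed upward. Over all 189 pairs there, dim ones included, the median was -0.06 with processed and -0.28 with deposited intensity. The single-setting test called 55.8% of all 6480 probes upward and 18.4% downward. The median departure in outer reverse was 0.53 with processed intensity, 0.55 with deposited intensity and 0.49 with normexp correction. The 2 arrays gave 0.54 and 0.56 there.

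Changing both bases of a mirrored pair keeps the CRE a palindrome. These 9 pairs within positions 10 to 15 were picked by symmetry and lie outside the rule for named pairs. Over the 5 settings 5 of the 9 departed upward and none downward, a share near the 55.4% called upward over all 1080 pairs. C12A+G13T had a log2 effect of -0.92, beside -0.94 for C12A alone (departure 0.78, SE 0.09), and A11C+T14G had -1.26 beside -1.12 for A11C (departure 0.65, SE 0.07). G10C+C15G, A11G+T14C and A11T+T14A departed by 0.09, 0.09 and 0.05 and were not called. Pairs that kept the palindrome thus had departures of different size.

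The strand on which a changed element was written made small differences. Among 58 substitutions above background in all 6 settings, the forward settings showed the larger loss for 21 and the smaller for 4, beside 40.2% and 53.6% over all 1128. A1G+T14A had the largest difference, -1.26 forward and -0.76 reverse (difference -0.50, SE 0.04, adjusted p in limma = 1.8e-06). In the other direction G13T+A16C gave -0.59 forward and -0.86 reverse (0.27, SE 0.07, adjusted p = 0.005). These calls depended on the background correction: 8 of the 58 were called with normexp and 1 with deposited intensity. The forward means also include the outer forward setting. Without both outer settings, left out after the data were seen, the median difference over the 58 was -0.03, against -0.09 with them. T14G+C15G then went from -0.37 to -0.03, while A1G+T14A kept -0.41 and G13T+A16C gave 0.49.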

How the data were processed

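Each array was an Agilent 1-colour scan with Cy5. Per the file headers, Feature Extraction 12.0.1.1 made the processed intensity by subtracting a fitted background surface and detrending, and replaced values near background with surrogates. The deposited value table held, per probe name, the median over spots of median signal minus local background. Background ran unequally: the surface subtracted had medians of 971 and 890 on arrays 1 and 2, more than the 405.5 and 363.75 raw units found on probes with 2 core changes, so processed intensity overstates the loss of dim probes, which are given as bounds.

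From these, log2 processed intensity was averaged over spots that were not outliers (4.65% and 3.37% of custom spots were), and the intact element in the same setting and array was subtracted. A sequence was above background when more than 0.5 of its spots passed the scanner's test, and bounds used each array's lowest such signal, 575 and 854. Effects, departures, differences between substitutions and strand differences were tested with limma 3.58.1 in R 4.3.3 on all 6 arrays with 1 mean per group, so that the other 4 arrays enter only the estimate of spread, with Benjamini-Hochberg adjustment at 0.05. All effects share the error of the intact probe. Scripts were tested on simulated data. No exact test was run, since sign changes of 2 arrays cannot give a p below 0.5.

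Named were all single substitutions; per class of positions the 3 brightest pairs; of called departures with the same sign on both arrays the 5 largest in each direction and the largest per class; and the 5 largest strand differences in each direction. The departure rule was repeated over 5 settings, and other named pairs were chosen after their values were seen. Members and lists were chosen with earlier results of these data known. Saturation touched almost no spots. Numbers 1 and 2 of the tagged GABPα arrays are also shared slides, and the other 2 arrays lay on slides of their own; deviations of same-numbered arrays correlated at -0.36, 0.23 and -0.41 between groups over 1128 substitutions, so the numbers were not taken to pair the samples.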

Additional observations from a re-analysis of the deposited data

How the results depend on the processing

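No called single effect, and no called effect or departure of a named pair, changed direction under any alternative run. The reversals were of uncalled values near 0 and of 2 strand differences. C15A was -0.062 and 0.038 with array 1 or array 2 alone and 0.066 without the outer forward setting, C15A+A16C -0.051 and 0.0064, and C15A+A16G -0.098 and 0.0085, with array 1 or array 2 alone. The strand difference of G10T+C15A was 0.042 without outer forward, and that of T14G+A16T was 0.012 without both outer settings (an alternative chosen after seeing the data). Leaving dim sequences out of the fit left 14 of 15 single substitutions, 38 of 43 pairs, 1890 of 1984 probes and 81 of 105 differences between single substitutions called, out of fewer tested. Departures numbered 107 of 262 readable pairs without the outer forward setting and 713 of 1799 readable probes setting by setting, against 14 of 37. Strand differences, 25 of 58, were the least stable: 1 with deposited intensity, 8 with normexp, 15 when over 0.8 of spots had to be above background, 82 of 291 without outer forward and 132 of 291 without both outer settings; the cause was not tested. Leaving out either array gave 45 to 47 single substitutions, 1070 to 1073 pairs, 6565 to 6595 probes, 937 to 945 differences, 11 to 14 departures and 16 to 22 strand differences. With deposited intensity, where a probe at or below local background has no log, 38 of 46 single substitutions were called; A16T became called in 7 alternatives and C15T lost its call in 3.

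With the replicate number as a block the counts were 46 single substitutions, 1074 pairs, 6686 probes, 1013 differences, 14 departures and 20 strand differences. On the 4 tagged GABPα arrays the block gave 13 departures, and a crossed pairing 16, both chosen after seeing the data. Signal over background limits the rest: 4784 of the 6768 probes give only a bound.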
